A study of Homo sapiens with 66 samples.

Results

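The liver identity genes described here are ALB, APOA1, APOB, APOH, SERPINA1, FGA, FGB, TTR, HNF4A and FOXA2, 10 of the 12004 protein-coding genes that had at least 1 peak of a hypoxia-inducible factor (HIF) subunit in at least 1 of 50 peak lists. A peak was given to a gene when its centre lay in the gene body or within 50 kb of a transcription start site (TSS) of the gene and nearer to it than to any other protein-coding gene of the GENCODE annotation of GRCh37 (hg19). Of the 131425 peaks in the 50 lists, 85 were assigned to these genes. Of these, 50 came from HepG2, 30 from HKC8 and 5 from RCC4.

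The study mapped HIF-1α, HIF-2α and their common partner HIF-1β by chromatin immunoprecipitation and sequencing (ChIP-seq) in 3 human cell lines. HepG2 is a liver cancer line, here exposed for 16 h to 0.5% oxygen, and it gave 2 libraries for each of the 3 antibodies. HKC8 is a kidney proximal tubule line. It was studied at 0.5% oxygen for 6, 16 and 48 h and at 3% oxygen for 6 h (24 libraries), and, in a second experiment at 0.5% oxygen for 16 h, as wild-type (WT) cells, HIF-1α knockout (HIF1aKO) cells and HIF-2α knockout (HIF2aKO) cells (14 libraries, 2 for each antibody whose target was present). Each knockout line was a single clone. RCC4 is a kidney cancer line with a mutated VHL gene, which leaves HIF-α stable in normoxia, the only oxygen level at which it was studied here (6 libraries). No HepG2 library was made in normoxia, so the lists do not show which of the peaks depend on low oxygen, and the effect of the line cannot be told apart from that of the experiment or, for RCC4, of oxygen. The lists hold no expression values, so the liver label of HepG2 was not checked against expressed markers.

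The 10 genes cover several sides of hepatocyte identity. HNF4A and FOXA2 are transcription factors of the liver lineage, the first a nuclear receptor that maintains hepatocyte gene expression and the second a forkhead factor that opens chromatin. The other 8 encode secreted plasma proteins, namely albumin (ALB), the thyroxine carrier transthyretin (TTR), the protease inhibitor alpha-1 antitrypsin (SERPINA1), the apolipoproteins A-I (APOA1), B (APOB) and H (APOH), and the fibrinogen chains alpha (FGA) and beta (FGB). HIF dimers recognise a short core within the hypoxia response element (HRE), and only a minor part of such cores in the genome is bound in any given cell type.

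The sequences of 6 places carry most of what follows. They are the upstream or intronic sites of HNF4A, SERPINA1, ALB and APOB that were found in HepG2 and in no other line, a site just past the distance limit of FOXA2, and the site near APOH that all 3 lines shared. Each is the 201 bases around the site's centre, read 5′ to 3′ on the plus strand of GRCh37. Capitals mark the HRE core (ACGTG or GCGTG, or on the other strand CACGT or CACGC) and, at APOH alone, the AP-1 word TGACTCA. The windows are chr20:43039886-43040086 for HNF4A, chr14:94862381-94862581 for SERPINA1, chr4:74244749-74244949 for ALB, chr2:21270082-21270282 for APOB, chr20:22514777-22514977 for FOXA2 and chr17:64271883-64272083 for APOH.
HNF4A intron: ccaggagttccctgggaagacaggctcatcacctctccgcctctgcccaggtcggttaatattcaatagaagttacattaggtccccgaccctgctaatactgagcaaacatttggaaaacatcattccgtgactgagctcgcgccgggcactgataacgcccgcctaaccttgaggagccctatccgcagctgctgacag
SERPINA1 upstream: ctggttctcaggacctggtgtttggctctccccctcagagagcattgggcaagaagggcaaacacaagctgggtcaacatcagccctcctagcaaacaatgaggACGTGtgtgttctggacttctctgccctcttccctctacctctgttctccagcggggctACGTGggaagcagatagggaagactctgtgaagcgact
ALB upstream: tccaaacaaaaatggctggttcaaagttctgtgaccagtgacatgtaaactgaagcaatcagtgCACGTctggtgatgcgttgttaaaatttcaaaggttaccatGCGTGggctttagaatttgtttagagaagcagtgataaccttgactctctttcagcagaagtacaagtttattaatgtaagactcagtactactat
APOB upstream: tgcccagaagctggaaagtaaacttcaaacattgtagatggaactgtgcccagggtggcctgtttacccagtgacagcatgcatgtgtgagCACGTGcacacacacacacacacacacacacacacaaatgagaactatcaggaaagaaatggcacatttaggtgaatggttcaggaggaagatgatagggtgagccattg
FOXA2 downstream: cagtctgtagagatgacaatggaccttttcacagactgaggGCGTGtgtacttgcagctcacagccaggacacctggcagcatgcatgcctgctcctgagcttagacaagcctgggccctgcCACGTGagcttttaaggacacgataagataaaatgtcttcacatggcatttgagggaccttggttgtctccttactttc
APOH upstream: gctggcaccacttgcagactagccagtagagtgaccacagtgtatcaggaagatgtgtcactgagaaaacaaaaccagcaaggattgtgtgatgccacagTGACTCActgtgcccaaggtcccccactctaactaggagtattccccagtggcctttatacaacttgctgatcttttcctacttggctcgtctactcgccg

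Each number attached to a peak is the score of the authors' peak caller, and it is used here only as a rank within a list. The percentile of a peak is the percentage of peaks in its list with a score no higher than its own. Read depth is unknown from the lists. Lists held 3470 to 6851 peaks in HepG2, 237 to 8279 in HKC8 and 911 to 5680 in RCC4, so a gene missing from a short list may lie just under the caller's limit. The share of peaks centred less than 1 kb from a protein-coding TSS was 22.98% and 20.93% for HIF-1α in WT HKC8, against 8.998% and 8.52% for HIF-2α, and in RCC4 41.3% and 18.2% against 12.04% and 7.27%. The HepG2 HIF-α libraries numbered 1 went against this order. In the list labelled HIF-1α replicate 1 the share was 8.35%, against 30.5% in HIF-1α replicate 2. In the list labelled HIF-2α replicate 1 it was 32.3%, against 10.1% in HIF-2α replicate 2, and in the HIF-1β lists it was 33.7% and 32.6%. The lists labelled HIF-1α replicate 2 and HIF-2α replicate 1 shared 37.8% and 50.1% of their peaks, while HIF-1α replicates 1 and 2 shared 35.0% and 17.6% and HIF-2α replicates 1 and 2 shared 22.5% and 25.9%. The lists labelled HIF-1α replicate 1 and HIF-2α replicate 2 shared 33.2% and 25.5%. As a part of its own peaks, HIF-1α replicate 1 shared slightly more with HIF-1α replicate 2 (35.0%) than with HIF-2α replicate 2 (33.2%). As a part of the other list the order was reversed (17.6% and 25.5%). Those other lists differed in length (6851 and 4499 peaks), so the overlaps do not show to which of them HIF-1α replicate 1 was nearer. Results that need the HIF-α isoform in HepG2 are therefore given by library, and calls are also given without both libraries numbered 1.

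Peaks at liver identity genes were found mainly in HepG2. In HepG2, 6 and 8 of the 10 genes had a peak in the HIF-1α lists (replicates 1 and 2), 5 and 8 in the HIF-2α lists and 7 and 2 in the HIF-1β lists. No list of either kidney line had peaks at more than 2 of them. Per 1000 peaks in the lists, 1.66 were assigned to liver identity genes in HepG2 (0.502 to 2.67 by library), 0.357 in HKC8 (0 to 2.01) and 0.289 in RCC4 (0 to 1.10). The HKC8 list with the highest rate, HIF-1α at 0.5% oxygen for 6 h (replicate 1), had 3 such peaks among 1496. The HepG2 and kidney lists therefore overlapped in this rate, while in the number of genes they overlapped only at the HepG2 HIF-1β replicate 2 list, whose 2 genes were HNF4A and SERPINA1. Of the 35 peaks outside HepG2, 26 belonged to APOH, and the other 9 were spread over 4 genes.

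**Figure D1:**
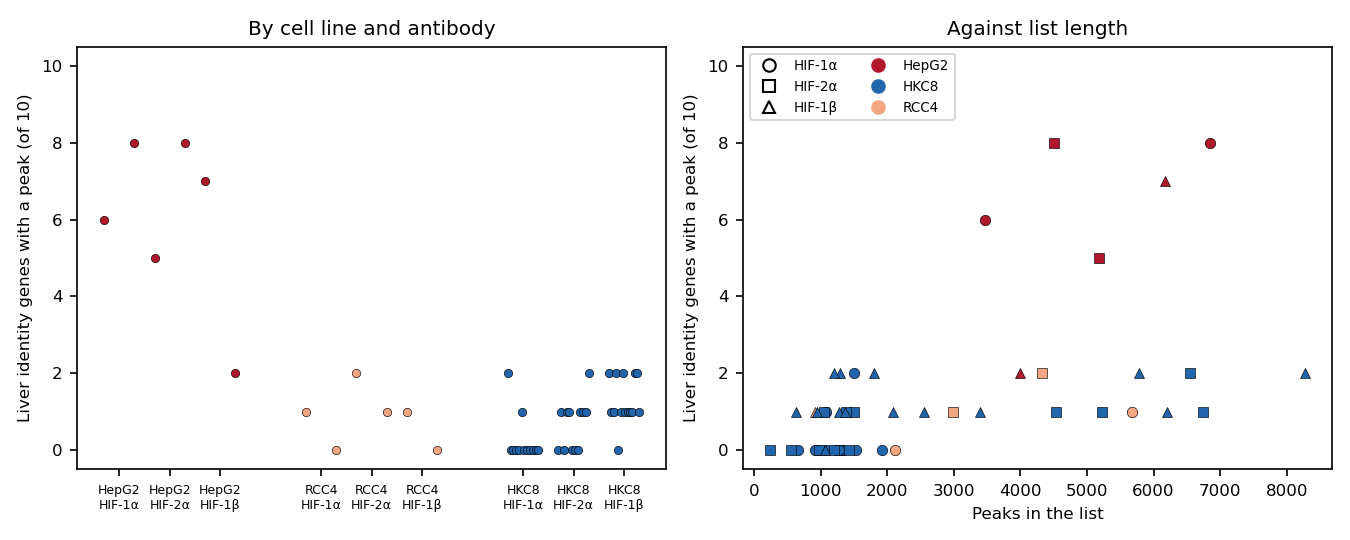
Number of the 10 liver identity genes with at least 1 assigned peak in each of the 50 lists (1 point per library), by cell line and antibody on the left and against the number of peaks in the list on the right. HepG2 lists held peaks at 2 to 8 of the genes and lists of HKC8 and RCC4 at 0 to 2, also at similar list lengths.

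To ask whether single genes were called more often in the liver line, the 6 HepG2 lists were compared with the 12 lists of WT HKC8 (knockout experiment) and RCC4, which have the same antibodies and hold 911 to 8279 peaks each. The test was a two-sided exact permutation test with labels permuted within antibody (3375 arrangements, smallest p 0.000296), adjusted by the Benjamini-Hochberg method over all 9996 genes with a peak in these 18 lists. HNF4A, SERPINA1 and APOA1, 3 of the 10 liver identity genes, were called more often in HepG2 and 0 less often, beside 2.62% of all genes tested called more often and 0.37% called less often. At an unadjusted p under 0.05, 7 liver identity genes were more often and 0 less often in HepG2 lists, beside 1130 of the 9996 genes more often. By the score percentile of the best peak, with 0 for no peak, the same 3 genes were higher in HepG2, beside 4.34% of all genes higher and 0.83% lower. The median gene of the 9 tested had a peak in 4 of 6 HepG2 lists and 0 of 12 others, beside 1 and 1 over all genes tested. FGA had no peak in any of the 18 lists and was not tested. Whether libraries came from separate cultures is not stated in the labels, so p-values measure the spread between these libraries, which may be technical. The labels also do not say whether the antibodies of 1 replicate number shared chromatin. Libraries were permuted as independent, and if they shared it the p-values are too small.

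**Figure D2:**
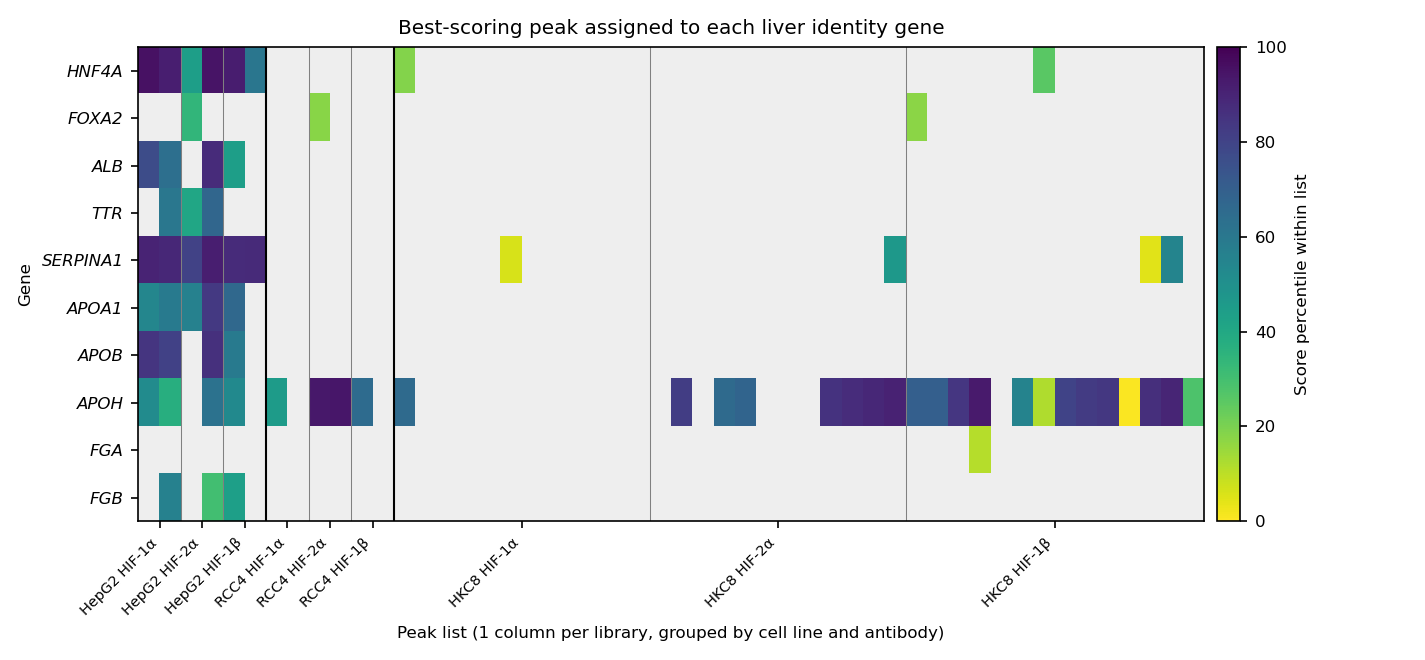
Score percentile of the best-scoring peak assigned to each liver identity gene (rows) in each of the 50 peak lists (columns, grouped by cell line and antibody, with replicate order within HepG2 and RCC4 groups). Grey means no peak. HNF4A and SERPINA1 were filled in all 6 HepG2 lists, while APOH was filled in all 3 lines.

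HNF4A had a peak in 6 of 6 HepG2 lists and 0 of 12 others (adjusted p = 0.0219, exact permutation test), and its mean percentile was 79.7 in HepG2 and 0 in the others (adjusted p = 0.0117). Its main site, chr20:43038561-43040788, lay in an intron, 9.95 kb downstream of a TSS of the gene. The percentile of the best peak was 95.3 and 91.5 with HIF-1α (replicates 1 and 2), 43.8 and 94.8 with HIF-2α, and 91.9 and 60.9 with HIF-1β. Thus 4 of the 6 lists placed it in their top 10%, and the low values were in HIF-2α replicate 1 and HIF-1β replicate 2. A second intronic site of HNF4A, chr20:43022493-43024558, lay 6.47 kb upstream of a TSS and was called in 4 HepG2 lists at percentiles 63.0 to 89.1, missing from those same lists with low values. In kidney cells HNF4A had only weak single calls, a peak in a coding exon with HIF-1α in HKC8 at 0.5% oxygen for 6 h (percentile 18.6) and an intronic peak with HIF-1β at 3% oxygen (percentile 25.4). Neither lay at the sites found in HepG2.

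FOXA2 had almost nothing within the limit, and a strong site just outside it. Inside the limit there was 1 peak in each line, in HepG2 with HIF-2α replicate 1 at 49.0 kb upstream (percentile 34.2), in RCC4 with HIF-2α at 45.5 kb upstream (17.9) and in HKC8 with HIF-1β at 16.2 kb upstream (17.4). The exact permutation test gave an adjusted p of 1. At 50.3 kb downstream of the TSS, the interval chr20:22514135-22515743 was called in 6 of 6 HepG2 lists and in 0 of 44 others. Its percentile was 99.3 and 98.9 with HIF-1α, 97.8 and 99.5 with HIF-2α, and 99.0 and 98.6 with HIF-1β. In each HepG2 list it scored above every peak within the limit at the 10 genes. It had ranks of 22 to 114 in lists of 3470 to 6851 peaks. The site is intergenic, and the nearest annotated TSS is that of the long non-coding RNA gene ENSG00000288974, 10.0 kb away. A weaker HepG2 place 72.0 to 72.2 kb from the TSS was likewise in 6 of 6 HepG2 lists and in none of the others, at percentiles 6.43 to 87.3. Not all peaks beyond the limit were confined to HepG2. Peaks 93.3 to 94.6 kb away were in some HepG2 lists (percentiles 12.7 to 54.2) and some RCC4 and WT HKC8 lists (32.4 to 60.6). Single kidney peaks lay at 60.7 and 80.5 kb (HKC8 HIF-1α, percentiles 28.9 and 0.841) and 68.8 kb (RCC4 HIF-1α, 24.3). With the limit at 100 kb the exact permutation test on percentiles gave FOXA2 an adjusted p of 0.0110, and that on calls 0.220. The HepG2 places at 50.3 kb and at 72.0 to 72.2 kb were singled out after their values were seen.

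SERPINA1 had a peak in 6 of 6 HepG2 lists and in 1 of 12 others (adjusted p = 0.0463, exact permutation test), with mean percentiles of 87.8 and 0.362 (adjusted p = 0.0117). All 6 HepG2 lists held a site outside the gene body, chr14:94861895-94863062, which lay 5.45 kb upstream of the nearest TSS of the gene. Its percentile was 90.2 and 88.8 with HIF-1α, 80.4 and 91.5 with HIF-2α, and 87.8 and 88.0 with HIF-1β. Its range over the 3 antibodies, 80.4 to 91.5, was narrower than that of the HNF4A site, and it was absent from all 44 kidney lists. A weaker site at a TSS of the gene (0.031 kb upstream, overlapping an untranslated region) was called in 3 HepG2 lists at percentiles 34.1 to 44.3. HKC8 had a different site, 9.27 kb downstream of a TSS and 7.28 kb from that of SERPINA2, called with HIF-1β in WT cells (percentile 4.35) and with HIF-1β and HIF-2α in HIF1aKO cells (54.9 and 46.6), in replicate 2 each time. The WT call is the 1 of 12. A further HKC8 peak, 2.99 kb upstream, was a single HIF-1α call at 0.5% oxygen for 48 h (percentile 6.24).

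APOA1 was the only gene of the 10 with a promoter peak in most HepG2 lists. The site, chr11:116707630-116709168, was centred 0.206 kb upstream of the TSS, and it was called in 5 of 6 HepG2 lists and 0 of 12 others (adjusted p = 0.0495, exact permutation test; 0.0317 by percentile). Its percentile was 54.1 and 58.7 with HIF-1α, 55.9 and 83.2 with HIF-2α, and 66.4 with HIF-1β replicate 1, and HIF-1β replicate 2 had no peak. The values were thus middling in 4 lists and high in 1. It was absent from all 44 kidney lists.

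The remaining apolipoproteins differed from each other. APOB, the structural protein of low-density lipoprotein, had a peak in 4 of 6 HepG2 lists and 0 of 44 others, with an adjusted p of 0.121 (exact permutation test), so it was not called. Its 2 repeated sites lay upstream, chr2:21269548-21271083 at 3.24 kb and chr2:21278711-21280330 at 12.5 kb, each in 3 HepG2 lists. At the nearer site the percentiles were 80.5 with HIF-1α replicate 2, 59.8 with HIF-2α replicate 2 and 59.3 with HIF-1β replicate 1. At the farther site they were 84.4 and 50.7 with HIF-1α and 86.2 with HIF-2α replicate 2, with no HIF-1β call. The 2 further APOB peaks, 43.7 kb downstream and 26.8 kb upstream, were single HIF-1β calls at percentiles 25.01 and 24.46.

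ALB, the most abundant plasma protein, behaved like APOB, with 4 of 6 HepG2 lists, 0 of 44 others and an adjusted p of 0.121 (exact permutation test). Both of its sites were intergenic and far upstream. The nearer, chr4:74244257-74245228 at 17.98 kb, had percentiles of 76.9 and 63.7 with HIF-1α, 87.6 with HIF-2α replicate 2 and 44.04 with HIF-1β replicate 1. The farther, chr4:74240685-74241597 at 21.7 kb, was called in HIF-1α replicate 2 (56.9) and HIF-2α replicate 2 (80.5). ALB and APOB lacked a peak in the same HepG2 lists, HIF-2α replicate 1 and HIF-1β replicate 2.

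TTR and FGB had fewer calls still. TTR had a peak in 3 of 6 HepG2 lists and 0 of 44 others (adjusted p = 0.231, exact permutation test), but at 3 different places. An intronic site at 4.27 kb upstream of a TSS was shared by HIF-1α replicate 2 (percentile 34.0) and HIF-2α replicate 2 (67.1), while the peaks at 4.88 kb and 15.6 kb downstream were each in 1 list. FGB also had 3 of 6 and 0 of 44 (adjusted p = 0.281, exact permutation test), all at 1 site, chr4:155498212-155499199, at percentiles 55.9 (HIF-1α replicate 2), 30.4 (HIF-2α replicate 2) and 43.6 (HIF-1β replicate 1). That site lay between the neighbouring fibrinogen genes, 11.8 kb from the FGB TSS and 13.2 kb from the FGA TSS, and it was given to FGB because the FGB body was nearer. FGA itself had only a weak HIF-1β peak in a coding exon in HKC8 at 0.5% oxygen for 16 h (percentile 11.2, replicate 2).

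**Figure D3:**
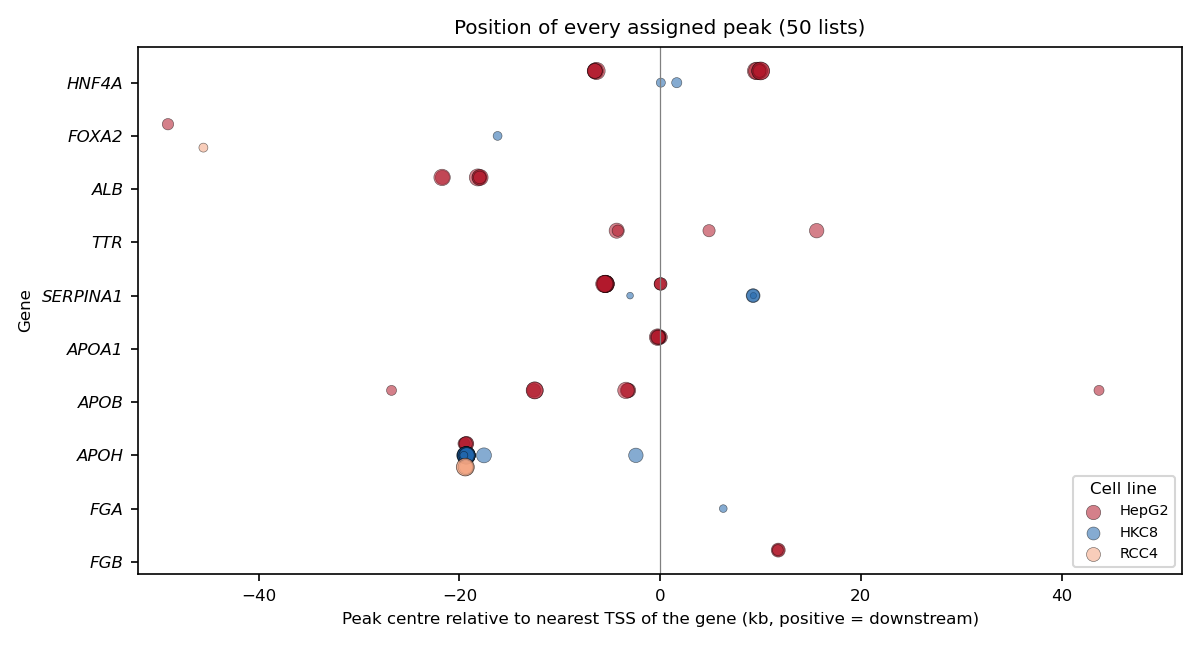
Centre of every peak assigned to a liver identity gene, in kb from the nearest TSS of that gene (positive values are downstream), with 1 point per peak and point area rising with score percentile. HepG2 points stack at the same place in several lists, most often upstream. Apart from APOH at -19.3 kb no stack holds points of more than 1 line, and the site of FOXA2 at 50.3 kb is outside the limit and not drawn.

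Grouped by position, the 85 peaks formed 26 sites. Of these, 16 were found in HepG2 alone, 9 in the kidney lines alone and 1 in both. Of the 9 kidney sites, 8 were in a single list. There were 12 sites in at least 2 HepG2 lists, and 11 of these were in no kidney list. Only 2 of the 12 were within 1 kb of a TSS of their gene, those of APOA1 and SERPINA1. The same counts were not made for the sites of all genes. They therefore do not show whether sites at liver identity genes were confined to 1 line more often than other sites. Among all genes tested, 6.75% had a peak in at least 3 of 6 HepG2 lists and in none of the 12 others, and 6 of the 10 liver identity genes did (ALB, APOA1, APOB, FGB, TTR and HNF4A).

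APOH, which binds phospholipids in plasma, had peaks in all 3 lines. It held 30 of the 85 peaks and was called in 4 of 6 HepG2 lists, 21 of 38 HKC8 lists and 4 of 6 RCC4 lists, and neither calls nor percentiles passed the exact permutation test (adjusted p = 1 and 0.551, mean percentile 34.0 in HepG2 and 53.5 in the 12 others). Of the 30 peaks, 28 lay in 1 interval outside the gene body, chr17:64271298-64273013, 19.3 kb upstream of the nearest APOH TSS and 26.7 kb from that of PRKCA. It is the 1 site shared by HepG2 and the kidney lines. In HepG2 its percentile was 51.6 and 37.4 with HIF-1α, 62.2 with HIF-2α replicate 2 and 52.7 with HIF-1β replicate 1. In RCC4 it was 45.1 with HIF-1α replicate 1, 93.5 and 94.0 with HIF-2α and 65.2 with HIF-1β replicate 2, and the other lists had no peak. The 2 APOH peaks elsewhere, in an intron and 17.6 kb upstream, were both in the HIF-1α replicate 1 list of HKC8 at 0.5% oxygen for 6 h.

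In HKC8 the APOH site was called in 0 of 12 HIF-1α lists, 7 of 12 HIF-2α lists and 13 of 14 HIF-1β lists. In the knockout experiment the HIF-2α percentiles were 85.5 and 89.0 in WT cells and 87.3 and 90.3 in HIF1aKO cells. The HIF-1β percentiles were 82.7 and 86.7 in WT cells, 83.9 and 89.7 in HIF1aKO cells, and 0.686 and 28.0 in HIF2aKO cells. So both HIF2aKO lists lay below all 4 of the WT and HIF1aKO lists. With 2 HIF-1β libraries against 2 a permutation test cannot reach 0.05, and none was run. Across the severity and duration experiment the HIF-1β percentiles were 11.99 and 79.87 at 3% oxygen for 6 h, 69.5 and 69.7 at 0.5% for 6 h, 84.0 and 92.6 at 0.5% for 16 h, and 55.4 with 1 list lacking the peak at 0.5% for 48 h. The lists of that experiment were short (237 to 1793 peaks), and the replicates at 3% oxygen differed from each other by more than most conditions did.

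**Figure D4:**
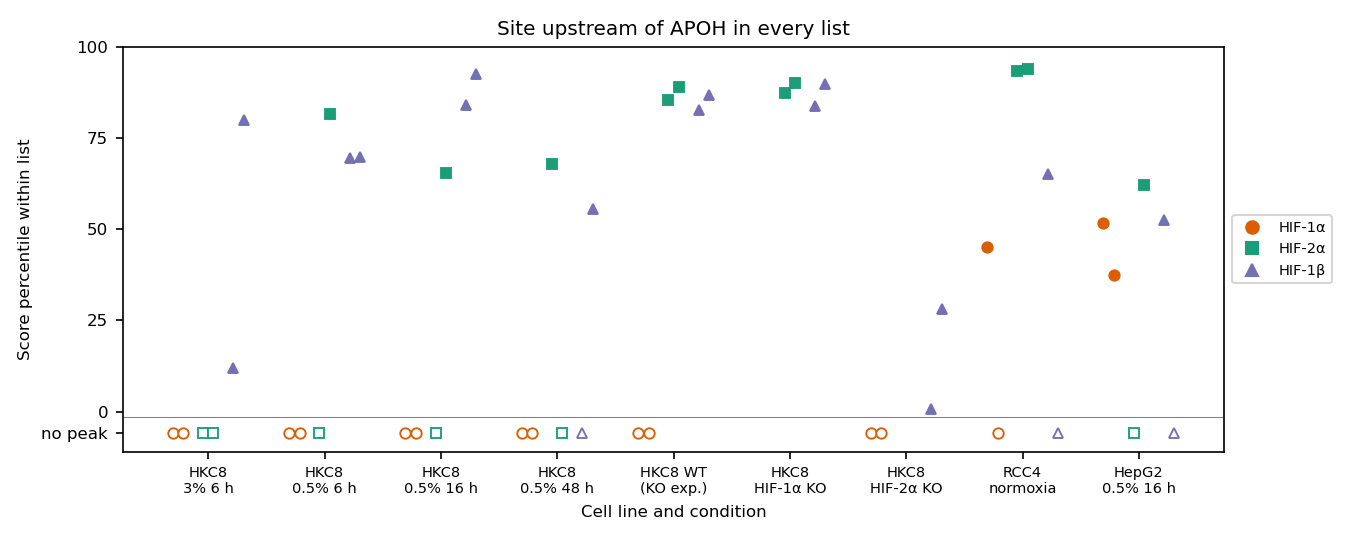
Score percentile of the site 19.3 kb upstream of APOH in each list, by cell line, condition and antibody, with 1 point per library and open symbols for lists without a peak there. In HKC8 no HIF-1α list held the site, and the HIF-1β values in HIF2aKO cells (0.686 and 28.0) were below those in WT and HIF1aKO cells (82.7 to 89.7).

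The bound windows were searched for short words within 100 bp of the centre on both strands, at the 12 sites in at least 2 HepG2 lists and at the FOXA2 site beyond the limit. The HRE core was present in 6 of 13, beside 49.3% of the 30113 HepG2 peaks (36.5% to 56.5% by list). The sites with the core were those of SERPINA1 at 5.45 kb upstream, ALB at 17.98 kb, both APOB sites, FGB and the FOXA2 site. In APOB at 3.24 kb it read CACGTG, which matches on both strands and was counted as 2 overlapping matches. The window of the main HNF4A site held none, and neither did the 933 bp common to its 6 peaks. The APOA1 promoter site held none in its window or in the 904 bp common to its peaks. Outside the window but within the stretch common to the HepG2 peaks, a core lay 116 bp from the centre at the farther ALB site, 137 bp at the APOH site, 233 bp at the SERPINA1 TSS site and 407 bp at the upstream HNF4A site.

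Words of other factors were few at these sites, as they were over all HepG2 peaks. A forkhead word (TGTTTAC or TATTTAC) was found in 1 of 13 windows, the APOB site at 3.24 kb, beside 7.47% of HepG2 peaks. An HNF4 word (CAAAGTCCA or CAAAGGTCA) was found in 0 of 13, beside 1.14%. An AP-1 word (TGACTCA or TGAGTCA) was found in 1 of 13, beside 6.42%, and that was the APOH site, which had no HRE core in its window. A match or its absence describes these letters in this window and says nothing of which protein was bound.

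Other genes of the liver programme showed how far the pattern reached. From a list of 77 further genes of plasma proteins, liver enzymes, transporters and liver transcription factors, 37 had a peak in the 18 lists. By the exact permutation test 11 were called more often in HepG2 and 0 less often, beside 2.62% and 0.37% of all genes tested. At an unadjusted p under 0.05 the counts were 17 and 0, beside 1130 of the 9996 genes more often. With a peak in 6 of 6 HepG2 lists and 0 of 12 others were F10 and F2, which encode coagulation factor X and prothrombin, TF (transferrin), AMBP (a plasma protein precursor), the receptor subunit ASGR1, the bile acid transporter SLC10A1, and the transcription factors PROX1 and TBX3. F10 and TF had the highest mean percentiles of these (98.3 and 93.8). The apolipoprotein genes APOC1 and APOC3 and the urea cycle gene CPS1 had 5 of 6 and 0 of 12, with mean percentiles of 43.3, 78.6 and 4.45. APOC3 neighbours APOA1, so these 2 loci are not independent.

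Kidney lineage genes and common hypoxia targets gave the background on either side. Of 18 kidney lineage genes, 12 had a peak and 0 were called in either direction by number of lists (exact permutation test; at an unadjusted p under 0.05, 0 more and 1 less often). PAX8, a kidney transcription factor, had a peak in 1 of 6 HepG2 lists and 10 of 12 others (adjusted p = 0.140, exact permutation test), and by percentile it was lower in HepG2 (5.81 and 64.8, adjusted p = 0.0362). CUBN, a receptor of the proximal tubule, was also lower by percentile (38.7 and 96.8, adjusted p = 0.0117, exact permutation test). Of 24 common hypoxia targets, 23 had a peak and 0 were called (exact permutation test, 0 also at an unadjusted p under 0.05), with 18 of them in all 6 HepG2 lists and a median of 12 of the 12 others. ALDOC, a glycolytic aldolase, had a peak in 1 of 6 HepG2 lists and 0 of 12 others, and EGLN1, an oxygen-sensing prolyl hydroxylase, in 5 of 6 and 5 of 12. The median over the listed targets of the mean percentile was 97.5 in HepG2 and 85.6 in the others. By percentile 0 of them were called (exact permutation test), while 5 were higher and 0 lower in HepG2 at an unadjusted p under 0.05. For the liver identity genes the corresponding medians were 45.4 and 0.

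Over the 18 lists, the genes whose percentiles followed the mean of the 9 liver identity genes most closely were PLA2G2E (r = 0.972), ARHGAP44 (0.965), FLJ14816 (0.963), ACSL5 (0.961) and IL6R (0.960). These are descriptions over 18 lists that share libraries, antibodies and many values of 0. Each of the 5 had a peak in 5 of 6 HepG2 lists and in 0 to 2 of 12 others. Among the liver identity genes themselves, r with that mean was 0.733 to 0.946 for 7 genes, 0.110 for APOH and 0.0580 for FOXA2. Each of these 9 genes is itself part of that mean, so its r is partly with its own values.

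The calls by number of lists were less stable than those by percentile. Against all 44 HKC8 and RCC4 lists, 7 of the 10 genes were called, all but APOH, FGA and FOXA2, beside 12.1% of 12004 genes, and the same number by percentile, beside 16.9%. The short HKC8 lists enter that fit. With each list cut to its best 908 peaks, SERPINA1 remained (adjusted p = 0.0283, exact permutation test), while HNF4A had 0.0722 and APOA1 0.693. With peaks of a score of at least 100 the values were 0.0198, 0.0984 and 0.240 (exact permutation test). Leaving out both HepG2 HIF-α libraries numbered 1, HNF4A and SERPINA1 had a peak in 4 of 4 HepG2 lists and APOA1 in 3 of 4, with adjusted p-values of 0.127, 0.201 and 0.201 (exact permutation test over 375 arrangements), and 0 of the 9533 genes tested were called (998 at an unadjusted p under 0.05, with 7 of the 10 among them). Leaving out single libraries, the HNF4A call by number of lists was kept in 13 of 18 fits, SERPINA1 in 1 and APOA1 in 0, with adjusted p-values up to 0.0627, 0.123 and 0.135 (exact permutation test). By percentile HNF4A and SERPINA1 were called in 18 of 18 and APOA1 in 14, with adjusted p-values up to 0.0327, 0.0327 and 0.0829 (exact permutation test). By number of lists HNF4A lost its call when any HepG2 library other than HIF-1α replicate 1 was left out. In each of these fits HNF4A stayed in all HepG2 lists used and in none of the others. Its unadjusted p was the smallest that 1125 arrangements allow (0.000889, exact permutation test). The fit without HIF-1α replicate 1, which kept the call, had the same 1125 arrangements and smallest p. In it 1282 genes were more often in HepG2 at an unadjusted p under 0.05 (exact permutation test). The fits that lost the call had 720 to 1111. The adjustment over all genes depends on how many genes reach a low p, and its part in the loss was not tested. SERPINA1 kept its call by number of lists only without WT HKC8 HIF-1β replicate 2. By percentile APOA1 lost its call without HepG2 HIF-1α replicate 2, HIF-1β replicate 1 or either HIF-2α library.

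The rule of assignment also decided some calls. With a limit of 10 kb the APOA1 adjusted p was 0.0524 (exact permutation test). When all annotated genes could take a peak, in place of protein-coding genes, the APOA1 promoter site went to the antisense gene APOA1-AS, the SERPINA1 site at 5.45 kb to the long non-coding RNA gene ENSG00000289541 and the APOH site to the pseudogene ENSG00000284242. Only HNF4A was then called of the 10 (adjusted p = 0.0232, exact permutation test). Its upstream intronic site went to HNF4A-AS1.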

How the data were processed

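Peaks of both HIF-α isoforms and of HIF-1β were analysed from 50 ChIP-seq libraries in 25 groups of 2, which the labels set apart by line, genotype, oxygen level, duration and antibody. The series has 66 samples. The 16 input libraries were not used here. Per the labels and the study's methods, the authors trimmed reads with Trim Galore 0.3.3, aligned them to GRCh37 (hg19) with BWA 0.7.5a-r405 and removed reads with a mapping quality under 15. The methods name 2 peak callers, T-PIC and MACS, and a filter on read counts against random background regions for peaks found by both. The deposited lists are 1 per library with a MACS-like score, and whether they had passed T-PIC or that filter is not given in the sources used here. SAMtools 0.1.19, bedtools 2.17.0 and Picard 1.106 are also named in the submitters' processing notes. The deposited value of each peak is the score of the caller, read as the negative log10 of its p-value times 10 (lowest 50.0, a p of 1e-05). Read depth is not given with the score and may differ between libraries, so the score was used only as a rank within a list.

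Peaks on chromosomes 1 to 22, X and Y (131131) were assigned to the nearest protein-coding gene body of GENCODE 44 mapped to GRCh37 (where a centre lay in several bodies, to the nearest TSS). The exact permutation tests, with labels permuted within antibody and Benjamini-Hochberg adjustment at 0.05, used Python 3.11.15 with numpy 2.4.6 and pandas 2.3.3, and were tested on simulated data. Sequences were read with pysam 0.24.0. The alternatives were other comparison libraries, strata, list lengths, score limits, assignment rules and distance limits, and leaving out libraries. Omitting both HepG2 HIF-α libraries numbered 1 and crossing replicate numbers were added after the data were seen. HIF-α isoforms in HepG2 were not tested, since 2 libraries against 2 cannot reach 0.05. Conditions in HKC8 were described by library and not tested.

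The 10 genes, the other gene lists and the tests were chosen with earlier results of these data known. Named genes are the 10, the other liver genes called more often in HepG2 (at most 12), at most 3 of the kidney lineage and common hypoxia lists by smallest p, and the 5 genes most like the mean of the 10. A gene named by this rule is not reported here. The symbol G6PC was not matched in the annotation.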

Additional observations from a re-analysis of the deposited data

How the results depend on the processing

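In the fit reported above, 262 genes were called more often and 434 had a higher percentile in HepG2, with 3 liver identity genes in each. Against all 44 kidney lists these became 1451, 2031, 7 and 7. All 4 counts were 0 against WT HKC8 alone or RCC4 alone (216 arrangements each), without both HepG2 HIF-α libraries numbered 1 (375) and with the replicate number as a block (486, smallest possible p 0.00206), in which the smallest p that the arrangements allow is larger. At an unadjusted p under 0.05, these fits (in that order) had 376, 446, 998 and 758 genes called more often. The block leaves out RCC4 HIF-1β replicate 3, which has no HepG2 partner. Same-numbered HepG2 and kidney libraries deviated from their group means with r from -0.265 to 0.0446, so the numbers do not pair libraries across lines. Within a line, same-numbered libraries of different antibodies deviated with r from -0.366 (HepG2 HIF-1α and HIF-2α) to 0.352 (WT HKC8 HIF-2α and HIF-1β), which the permutation within antibody does not model. Crossing the HepG2 HIF-1α numbers in the block also gave 0 (902 at an unadjusted p under 0.05). With lists cut to 908 peaks the counts were 125, 163, 1 and 1, with a score of at least 100 they were 150, 214, 1 and 1, and within 10 kb 136 genes were called. With all annotated genes, 1 liver identity gene was called by either measure. Leaving out libraries gave 0 to 160 genes called (216 to 1377 at an unadjusted p under 0.05), 0 to 804 by percentile, 0 to 2 liver identity genes called and 0 to 3 by percentile. The cause of these shifts was not tested where the number of arrangements or lists does not give it. The difference for FOXA2, 8.33 percentage points and 4.21 percentiles, was 16.7 and 8.42 without replicate 2 of each group and turned to -8.33 percentage points and -1.49 percentiles without HepG2 HIF-2α replicate 1, with or without HIF-1α replicate 1. HIF-1α and HIF-2α as 1 stratum, assignment by nearest TSS and a limit of 100 kb left all 4 counts within 1.5 times. Depth is unknown, so a missing peak is not evidence of missing binding, and RCC4 differs from HepG2 in oxygen as well as in cell line.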

Other observations

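Within HepG2, the lists with a low promoter-proximal share had the higher rates of peaks at liver identity genes. The list labelled HIF-1α replicate 1 (8.35% promoter-proximal) had 2.02 such peaks per 1000 and HIF-2α replicate 2 (10.1%) had 2.67. HIF-1α replicate 2 (30.5%) had 1.90, HIF-1β replicate 1 (33.7%) 1.78, HIF-2α replicate 1 (32.3%) 0.963 and HIF-1β replicate 2 (32.6%) 0.502. With 6 lists of 3 antibodies no test was made, and the part of the doubtful labels in this order was not tested.

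The liver identity genes differed in how much room they had for a peak. The stretch of genome that the rule gave to each ran from 6 kb for APOA1 and 20 kb for FGA to 98 kb for HNF4A and 102 kb for FOXA2, against a median of 52 kb over all protein-coding genes. APOA1 was called in 5 HepG2 lists with the shortest stretch, and FOXA2, with the longest, had its strong HepG2 site outside it.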
